A study of Mus musculus with 12 samples.

Results

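The 7 cartilage genes that do not encode collagens, *Acan*, *Hapln1*, *Comp*, *Matn1*, *Matn3*, *Ucma* and *Sox9*, were followed in whole bone marrow flushed from mouse long bones. They were chosen by gene symbol, and all 7 had exactly 1 row in the authors' value table, out of 19938 genes with a row of their own symbol. The study used B6 mice and 12 microarrays in 4 groups of 3. Irradiated PTH mice received 2 fractions of 310 cGy at 10 days of age and then parathyroid hormone (PTH) from day 11 to day 15. Irradiated vehicle mice had the same radiation followed by vehicle over the same days. Nonirradiated PTH and nonirradiated vehicle mice had the same treatments without radiation, and marrow of all groups was taken at day 16. The design asks what irradiation of the marrow does to expression and whether it alters the response to PTH, a hormone of calcium balance whose receptor, in the growth plate, also binds the local factor PTHrP.

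Cartilage is a matrix of collagen fibrils and hydrated proteoglycan made by chondrocytes. In the long bones of young mice it forms the growth plate, where chondrocytes divide, enlarge and mineralise next to the marrow cavity, and it also covers the joint surfaces. Aggrecan, the product of *Acan*, carries the sulfated chains that hold water, and the link protein encoded by *Hapln1* fixes aggrecan to hyaluronan. *Comp*, *Matn1* and *Matn3* encode adaptor proteins that bridge collagen fibrils and proteoglycans. *Ucma* encodes a small secreted protein rich in gamma-carboxyglutamate, and *Sox9* encodes the transcription factor that specifies chondrocytes. The samples were a marrow flush, so these transcripts were measured in a tissue in which chondrocytes are not a resident marrow cell type.

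The upstream sequences are given for *Ucma* and *Matn3*, because both genes were called for irradiation in the results that follow and are in RefSeq's promoter table (build GRCm38.p6, 5′ to 3′ on the plus strand of both genes). Each line holds the 250 bases before the annotated start, at chr2:4975872-4976121 for *Ucma* and chr12:8947679-8947928 for *Matn3*. Capitals mark CCAAT, a common promoter element, searched on both strands as CCAAT and ATTGG after the sequences had been seen.
Ucma: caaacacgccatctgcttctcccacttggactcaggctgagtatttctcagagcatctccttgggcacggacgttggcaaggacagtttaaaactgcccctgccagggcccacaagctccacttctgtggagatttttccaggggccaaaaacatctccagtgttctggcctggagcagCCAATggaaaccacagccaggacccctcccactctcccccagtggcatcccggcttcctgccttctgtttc
Matn3: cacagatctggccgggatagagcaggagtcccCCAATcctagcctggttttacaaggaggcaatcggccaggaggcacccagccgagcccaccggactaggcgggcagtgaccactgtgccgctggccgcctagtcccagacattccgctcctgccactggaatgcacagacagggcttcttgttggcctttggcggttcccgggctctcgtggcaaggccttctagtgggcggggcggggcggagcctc
CCAAT or ATTGG was found in 3 of the 5 member promoters in the table, and in 33.8% of the 32851 promoters there over the same length. A SOX motif, spelled ACAAAG or ACAATG and searched on both strands over the table's whole window, which runs on past the start, was found in 0 of the 5 and in 28.6% of all promoters. A match or its lack describes only the letters in these windows.

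Values are log2 expression, so a difference of 1 is a 2-fold change. Precision is limited by the 3 arrays a group. Nothing in the labels tells whether each array held a mouse of its own or a pool, so p-values measure the spread between these samples, which may be partly technical. By *Xist*, which is expressed from the inactive X chromosome, 1 of 3 irradiated PTH, 1 of 3 irradiated vehicle, 3 of 3 nonirradiated PTH and 0 of 3 nonirradiated vehicle arrays had a female pattern. Replicate 3 of irradiated PTH and replicate 3 of nonirradiated vehicle had interquartile ranges of 2.86 to 2.88 over all rows, against 3.13 to 3.25 in the other 10 arrays. The 7 measured marrow marker genes had mean log2 levels of 9.06 to 9.61 in irradiated PTH, 9.37 to 9.83 in irradiated vehicle, 10.2 to 10.5 in nonirradiated PTH and 9.95 to 10.3 in nonirradiated vehicle marrow. Irradiation lowered 2 of the 7 in PTH mice and 2 in vehicle mice (list medians -0.93 and -0.52). Over all genes, 1.74% and 1.01% were called lower in the same order. *Ptprc*, a gene of all white blood cells, averaged 10.87 in irradiated PTH, 10.83 in irradiated vehicle, 11.47 in nonirradiated PTH and 11.54 in nonirradiated vehicle marrow. In this bulk tissue, fewer cells of a type and less RNA per cell cannot be told apart. The table has no detection call, and 1 of the 7 members, *Hapln1*, had a mean over all arrays above the median of the 19938 gene means (6.48). For orientation, the Y-linked genes *Kdm5d*, *Uty* and *Eif2s3y* read 3.59 to 5.6 in the 5 female-pattern arrays, where their RNA is absent. *Matn1* read 4.03 to 4.89 over the 12 arrays, wholly inside that range. Background differs from probe to probe.

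Irradiation in PTH-treated mice was accompanied by higher *Ucma*, and *Ucma* was the only one of the 7 genes called in this comparison. *Ucma* read 6.44, 6.75 and 6.95 in irradiated PTH marrow, against 6.12, 6.06 and 5.54 in nonirradiated PTH marrow. Every irradiated array lay above every nonirradiated one. The mean was 6.71 ± 0.254 in irradiated PTH mice and 5.90 ± 0.320 in nonirradiated PTH mice (SD, n = 3 each), a difference of 0.81 (SE 0.181) or 1.75-fold, with an adjusted p of 0.0378 (limma, Benjamini-Hochberg over all genes). That is 1 of 7 members called higher, where 0.692% of all genes were called higher, 1.74% lower and 2.43% in either direction. The call was near the threshold. It ended, with adjusted p of 0.0555 to 0.145, without any 1 of replicates 1, 2 or 3 of nonirradiated PTH, replicates 1, 2 or 3 of irradiated vehicle, or replicates 2 or 3 of irradiated PTH, and it also ended with the sex of the mice as a term (0.71, adjusted p = 0.287), with only the 2 groups in the fit (0.149) and without both arrays of narrow range (0.69, adjusted p = 0.111).

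Another 4 matrix genes had positive differences in PTH-treated mice that did not pass the test. *Matn3*, a growth plate matrilin, read 6.05, 6.53 and 6.40 in irradiated PTH marrow, against 5.84, 5.6 and 5.73 in nonirradiated PTH marrow, a difference of 0.60 (SE 0.167, limma adjusted p = 0.0945). *Hapln1* read 7.12, 7.41 and 7.0 in irradiated PTH marrow, against 6.83, 6.80 and 6.18 in nonirradiated PTH marrow (0.57, SE 0.279). *Acan* read 6.27, 6.53 and 6.18 in irradiated PTH marrow, against 6.08, 5.95 and 5.77 in nonirradiated PTH marrow (0.39, SE 0.205). For these 3 genes and *Ucma* the groups did not overlap, so 4 of 7 members lay wholly higher, where 8.93% of all genes did. *Comp* overlapped, with 6.38, 6.59 and 5.97 in irradiated PTH marrow against 6.03, 6.16 and 5.77 in nonirradiated PTH marrow (0.32, SE 0.199). *Sox9* (0.04, SE 0.135) and *Matn1* (-0.10, SE 0.200) differed by less than their errors. The median change of the 7 was 0.39, against 0.01 over all genes.

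**Figure D1:**
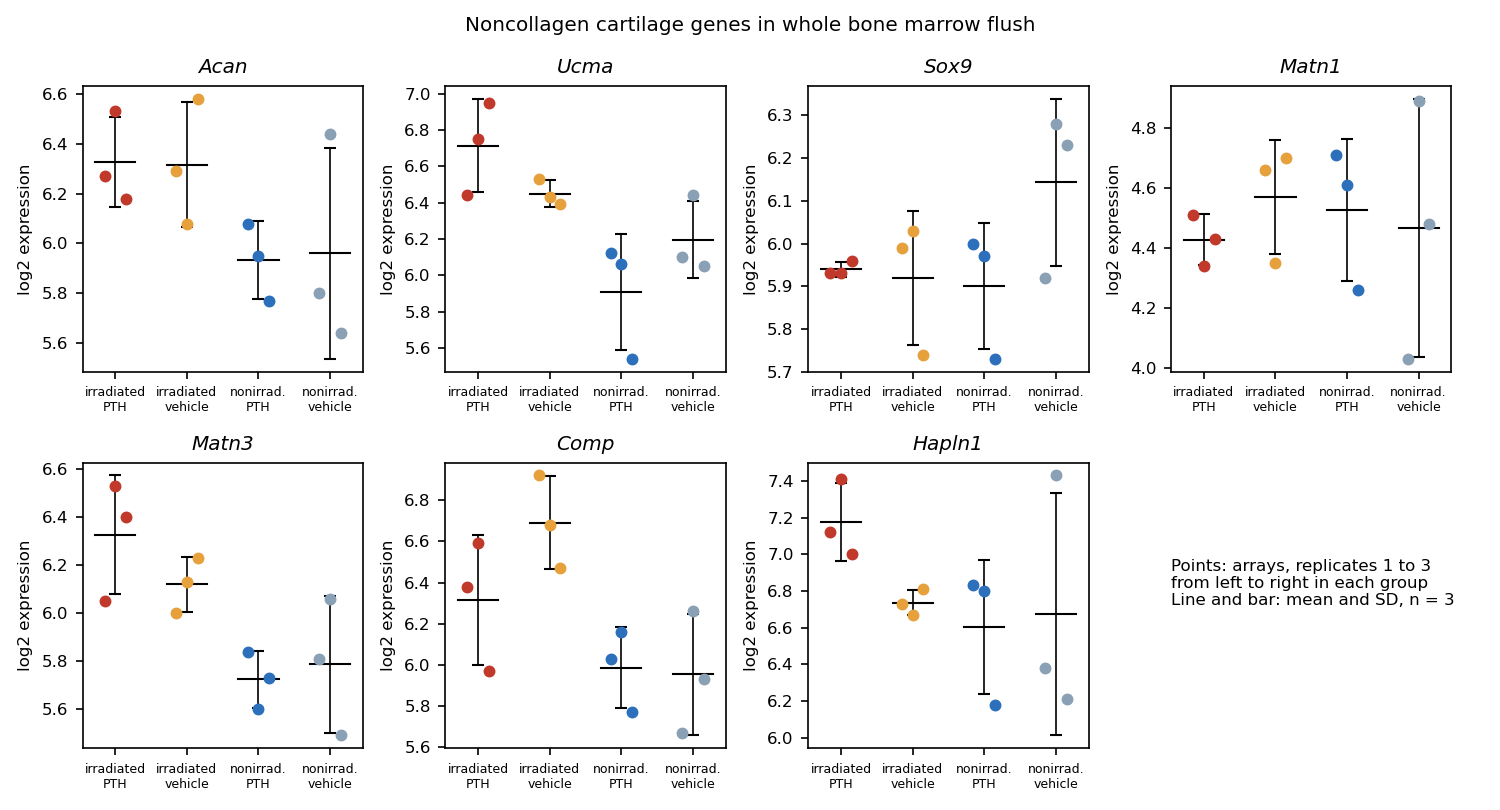
Log2 expression of the 7 genes in every array (points), with the mean and SD of each group of 3 (line and bar). The groups run from irradiated PTH to nonirradiated vehicle, each panel has its own vertical scale, and *Ucma* reads 6.44 to 6.95 in irradiated PTH marrow and 5.54 to 6.12 in nonirradiated PTH marrow.

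In vehicle-treated mice 0 of the 7 genes were called for irradiation by limma, where 2.22% of all genes were (1.01% of all lower). An unadjusted limma p under 0.05 was found for 1 of the 7, near the share over all genes, 13.28%. The 1 member was *Comp*, which encodes a pentameric adaptor of cartilage, tendon and ligament. *Comp* read 6.92, 6.68 and 6.47 in irradiated vehicle marrow, against 5.67, 6.26 and 5.93 in nonirradiated vehicle marrow. The groups did not overlap, and the difference was 0.74 (SE 0.199, limma adjusted p = 0.0904), or 1.66-fold. It passed with array weights (adjusted p = 0.0369), with arrays centred on housekeeping genes (0.0406), with the replicate number as a block (0.0429) and without irradiated PTH replicate 3 (0.0388). Over all alternatives its adjusted p lay between 0.0369 and 0.267.

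The remaining members overlapped in vehicle mice, and in each of them the same nonirradiated vehicle array was the highest of its group. *Acan* read 6.29, 6.08 and 6.58 in irradiated vehicle marrow, against 5.80, 6.44 and 5.64 in nonirradiated vehicle marrow (0.36, SE 0.205). *Ucma* read 6.53, 6.43 and 6.39 in irradiated vehicle marrow, against 6.10, 6.44 and 6.05 in nonirradiated vehicle marrow (0.25, SE 0.181). *Hapln1* read 6.73, 6.67 and 6.81 in irradiated vehicle marrow, against 6.38, 7.43 and 6.21 in nonirradiated vehicle marrow (0.06, SE 0.279). Nonirradiated vehicle replicate 2 was the highest array of its group for all 7 genes. *Matn3*, at 6.0, 6.13 and 6.23 in irradiated vehicle marrow against 5.81, 6.06 and 5.49 in nonirradiated vehicle marrow (0.34, SE 0.167), again had replicate 2 highest among the nonirradiated vehicle arrays. Without that array, a choice made after seeing the values, 5 of 7 members lay wholly higher in irradiated vehicle marrow instead of 1, where 16.9% of all genes did instead of 8.95%. The array was picked as the highest of its group for all 7 members, so part of this gain was built in. Genes at large were not picked in that way, so their share is not a like yardstick. Without nonirradiated vehicle replicate 2 the *Hapln1* difference was 0.44 instead of 0.06, a shift built in likewise. None of the 7 members passed the test with or without that array, *Sox9* (-0.23, SE 0.135) and *Matn1* (0.11, SE 0.200) among them.

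Averaged over both treatments, irradiation raised 3 of the 7 genes, *Ucma*, *Matn3* and *Comp*, and lowered 0, where limma called 2.51% of all genes higher. *Ucma* averaged 6.58 in irradiated and 6.05 in nonirradiated marrow, a rise of 0.53 (SE 0.128, adjusted p = 0.0283). *Matn3* averaged 6.22 in irradiated and 5.75 in nonirradiated marrow, a rise of 0.47 (SE 0.118, adjusted p = 0.0360). *Comp* averaged 6.5 in irradiated and 5.97 in nonirradiated marrow, a rise of 0.53 (SE 0.141, adjusted p = 0.0458). These rises were 1.38-fold to 1.45-fold. *Acan* did not pass (0.38, SE 0.145, adjusted p = 0.191), and *Hapln1* (0.32), *Matn1* (0.00) and *Sox9* (-0.09) did not pass either. Marrow cell genes moved with these rises: averaged over treatments, limma called 9 of 10 measured B-lineage genes lower (list median -2.24) and 3 of 7 whole marrow genes lower (list median -0.60). Over all genes 3.59% were called lower, and the lists share *Cd79a* and *Vpreb1*. As a description over 12 arrays, the mean level of the B-lineage list had r of -0.74 with *Ucma*, -0.75 with *Matn3* and -0.65 with *Comp*, and on deviations from the group means 0.35, 0.52 and 0.26 in the same order. The part of the loss of these marrow transcripts in the 3 rises was not tested. For 0 of the 7 genes did the 6 irradiated arrays lie wholly above the 6 nonirradiated ones, where 1.69% of all genes did.

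These 3 calls depended on single arrays. Of 12 fits that left out 1 array, *Ucma* kept its call in 5, *Matn3* in 3 and *Comp* in 2. The number of members called was 0 without replicates 1 or 3 of nonirradiated vehicle, replicate 3 of nonirradiated PTH, replicates 2 or 3 of irradiated vehicle or replicate 2 of irradiated PTH. It was 1 without replicates 1 or 2 of nonirradiated PTH or replicate 1 of irradiated vehicle, 2 without replicates 1 or 3 of irradiated PTH, and 4 without nonirradiated vehicle replicate 2, where *Acan* also passed (0.49, adjusted p = 0.0400). The size moved less than the call: over these fits the *Ucma* rise lay between 0.44 and 0.60, *Matn3* between 0.39 and 0.54 and *Comp* between 0.46 and 0.62. With sex as a term or without both narrow-range arrays, 1 member was called, *Comp*.

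PTH made no difference that passed for any of the 7 genes, in irradiated or nonirradiated mice, and limma called 0.0% of all genes in both comparisons. In irradiated mice 759 genes had an unadjusted p under 0.05, and 0 of them were members. *Hapln1* was the 1 member whose groups did not overlap, at 7.12, 7.41 and 7.0 with PTH against 6.73, 6.67 and 6.81 with vehicle, where 5.48% of all genes lay wholly higher. Its difference was 0.44 (SE 0.279, 95% interval -0.17 to 1.05, adjusted p = 0.844). *Comp* had a negative difference, at 6.38, 6.59 and 5.97 with PTH against 6.92, 6.68 and 6.47 with vehicle, a difference of -0.38 (95% interval -0.81 to 0.05). The interval was -0.13 to 0.66 for *Ucma* and -0.44 to 0.46 for *Acan*. With 3 arrays a group, no change in irradiated mice of a size inside these intervals was excluded.

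In nonirradiated mice, where all PTH arrays had the female pattern and 0 vehicle arrays did, PTH and sex cannot be told apart. There *Ucma* differed by -0.29 (95% interval -0.68 to 0.10) and *Sox9* by -0.24 (95% interval -0.54 to 0.05), and the other 5 members by -0.07 to 0.06. *Sox9* read 6.0, 5.97 and 5.73 in nonirradiated PTH marrow, against 5.92, 6.28 and 6.23 in nonirradiated vehicle marrow. The test of whether irradiation acted differently with PTH than with vehicle called 0.0% of all genes. Sex enters this test too, because the female-pattern arrays were spread unevenly over the 4 groups. *Ucma* had the smallest p among the members in that test, with an interaction of 0.56 (SE 0.256, 95% interval -0.00 to 1.11, adjusted p = 0.732), and *Comp* had -0.41 (SE 0.281, adjusted p = 0.732).

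**Figure D2:**
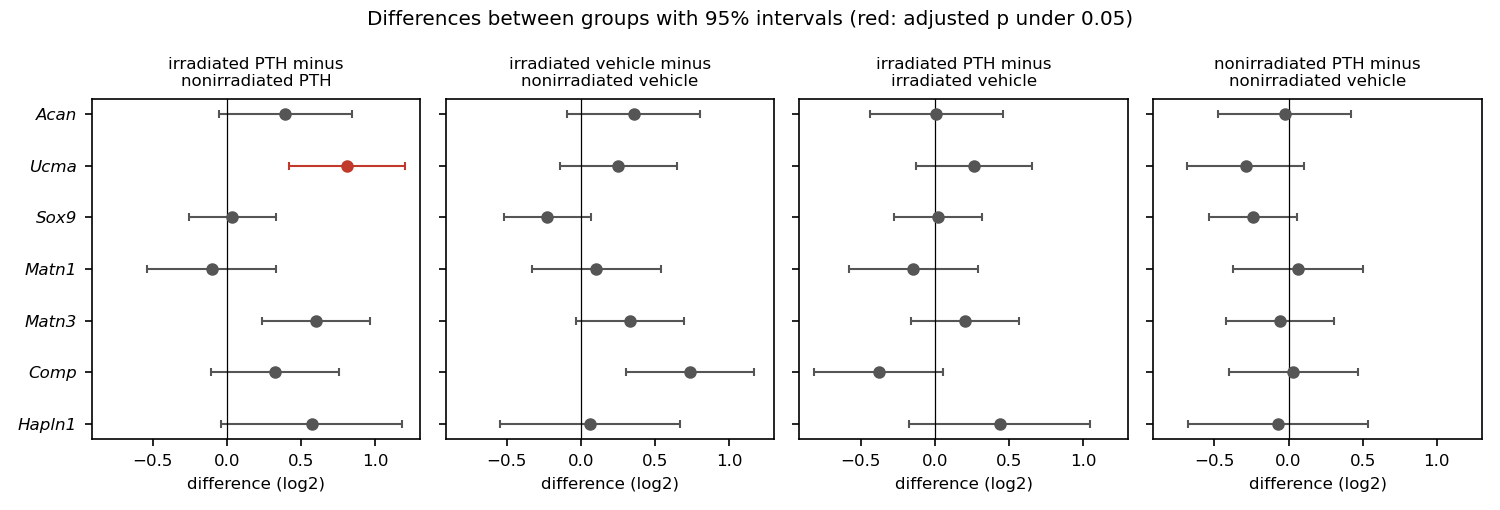
Differences in log2 expression of the 7 genes with 95% intervals, for irradiation in PTH-treated and vehicle-treated mice and for PTH in irradiated and nonirradiated mice. The interval of *Ucma* for irradiation in PTH mice, 0.42 to 1.20, is the red one, with an adjusted p under 0.05.

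The likeness among the 7 genes varied from pair to pair. As a description over 12 arrays, *Acan* had Pearson r of 0.83 with *Hapln1*, 0.81 with *Matn3* and 0.69 with *Ucma*, and *Ucma* had 0.82 with *Matn3*. *Sox9* had r of -0.21 to 0.39 with the others. Part of these values comes from the groups themselves, so they were also taken on deviations from the group means. *Acan* and *Hapln1* then had r = 0.90, while *Matn3* and *Comp* had 0.06 within groups against 0.49 over all arrays. *Sox9* had higher values within groups, at 0.65 with *Comp*, 0.61 with *Matn1*, 0.59 with *Ucma* and 0.46 with *Hapln1*, and stayed low with *Acan* (0.12) and *Matn3* (-0.065). Array order within a group was shared by many members: nonirradiated vehicle replicate 2 was highest for 7, nonirradiated PTH replicate 1 was highest for 6 and nonirradiated PTH replicate 3 was lowest for 6.

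*Cnmd*, which encodes chondromodulin, a cartilage protein that inhibits vessel growth, was the gene most like *Acan* (r = 0.93 over 12 arrays), most like *Hapln1* (0.92) and most like the mean of the 7 (0.92) among all genes ranked. *Cnmd* read 7.43, 8.03 and 7.03 in irradiated PTH, 7.25, 7.15 and 7.51 in irradiated vehicle, 6.96, 7.04 and 6.36 in nonirradiated PTH, and 6.71, 7.81 and 6.36 in nonirradiated vehicle marrow. The array that was high for *Acan* and *Hapln1* among the nonirradiated vehicle arrays was thus also the high one for *Cnmd*. On deviations from the group means, r with *Cnmd* was 0.92 for *Acan* and 0.95 for *Hapln1*. The next genes most like *Acan* were *Gnb5* (0.90) and *Ramp2* (0.86), and those most like *Hapln1* were *Ccdc89* (0.89) and *Zfp345* (0.86).

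*Comp* had a different set of likest genes. They were *Phlda3*, a p53 target that restrains Akt signalling (r = 0.98), *Eva1c* (0.96) and *Lipe*, the hormone-sensitive lipase of fat cells (0.95). *Phlda3* read 6.35, 6.32 and 5.69 in irradiated PTH, 6.88, 6.47 and 6.30 in irradiated vehicle, 5.73, 6.05 and 5.55 in nonirradiated PTH, and 5.41, 6.02 and 5.59 in nonirradiated vehicle marrow. Irradiated PTH replicate 3 was low in its group for both genes, and irradiated vehicle replicate 1 was the highest of all 12. Within groups r was 0.96 for *Phlda3* and 0.88 for *Lipe*. For *Lipe* itself, irradiation changed expression by 1.32 in vehicle mice (limma adjusted p = 0.0283) and by 0.31 in PTH mice (adjusted p = 0.666). The mean of 6 adipocyte genes had r = 0.77 with *Comp* over all arrays, 0.63 with *Matn3*, 0.58 with *Ucma* and 0.58 with *Acan*. It had 0.22 with *Hapln1*, 0.04 with *Matn1* and -0.31 with *Sox9*. Within groups r was -0.13 for *Comp*, -0.18 for *Matn3*, -0.45 for *Ucma* and -0.11 for *Acan*.

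The genes most like *Matn3* were *Fbxo9* (0.94), *Nars* (0.92), an asparaginyl-tRNA synthetase, and *Rgs16* (0.92), a regulator of G protein signalling. Those most like *Ucma* were *Snx24* (0.91), *Ptprn* (0.89) and *Prex2* (0.89). *Sox9* was most like *Mmd2* (0.95), *Tmem171* (0.93) and *Magel2* (0.92), and *Matn1* most like *Ajuba* (0.87), *Ltc4s* (0.85) and *Elapor1* (0.85). Each is the top of a ranking of all named genes over 12 arrays that share their groups, so high values can arise without any link between the genes. After *Cnmd*, the genes most like the mean of the 7 were *Gnb5* (0.90), *Nsg1* (0.89), *Fam118a* (0.86) and *Ccdc89* (0.86).

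**Figure D3:**
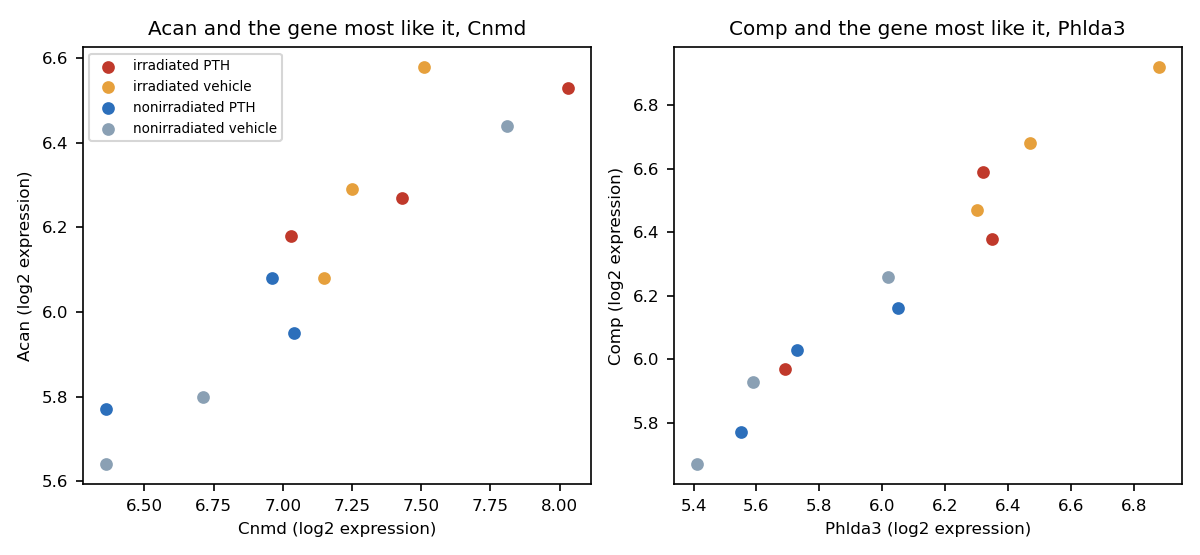
Log2 expression of *Acan* against *Cnmd* (left) and of *Comp* against *Phlda3* (right), 1 point per array, coloured by group. In the left panel 1 nonirradiated vehicle array lies at 6.44 for *Acan* and 7.81 for *Cnmd*, among the irradiated arrays, and in the right panel 1 irradiated PTH array lies at 5.97 for *Comp* and 5.69 for *Phlda3*, among the nonirradiated ones.

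Cartilage collagens, defining markers of the growth plate, did not pass in these arrays. Of 8 measured collagens of cartilage, 0 were called by limma in any comparison, and their median irradiation change was 0.09 in PTH mice and -0.11 in vehicle mice. *Col2a1*, the main collagen of cartilage, read 7.04, 6.98 and 6.64 in irradiated PTH, 7.08, 6.97 and 6.88 in irradiated vehicle, 6.95, 6.96 and 6.70 in nonirradiated PTH, and 6.75, 7.25 and 6.98 in nonirradiated vehicle marrow. Its irradiation change averaged over treatments was 0.00 (SE 0.110). *Col10a1*, made by enlarged growth plate chondrocytes, read 8.38, 8.53 and 9.17 in irradiated PTH marrow, against 8.79, 7.85 and 8.09 in nonirradiated PTH marrow, and did not pass (0.45, adjusted p = 0.527). Irradiation differences in PTH and vehicle mice were 0.30 and -0.14 for *Col9a2*, 0.16 and -0.17 for *Col9a1*, and -0.31 and -0.38 for *Col11a1*, and none of these passed. *Ihh*, a signal sent by chondrocytes that are starting to enlarge, read 5.96 to 6.55 in the irradiated and 6.27 to 6.73 in the nonirradiated arrays. The mean log2 level of the 8 collagens ran from 7.25 to 7.45 in irradiated PTH, 7.12 to 7.16 in irradiated vehicle, 7.16 to 7.28 in nonirradiated PTH and 7.08 to 7.32 in nonirradiated vehicle marrow. *Col2a1* was highest in nonirradiated vehicle replicate 2, as the 7 members were within that group, and had r = 0.52 with the mean of the members over all 12 arrays and 0.74 within groups. The other 7 collagens had r of -0.58 to 0.43 with that mean over all arrays and -0.30 to 0.31 within groups, and *Ihh* had -0.36 and -0.23. How much growth plate was carried into each flush was not tested.

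**Figure D4:**
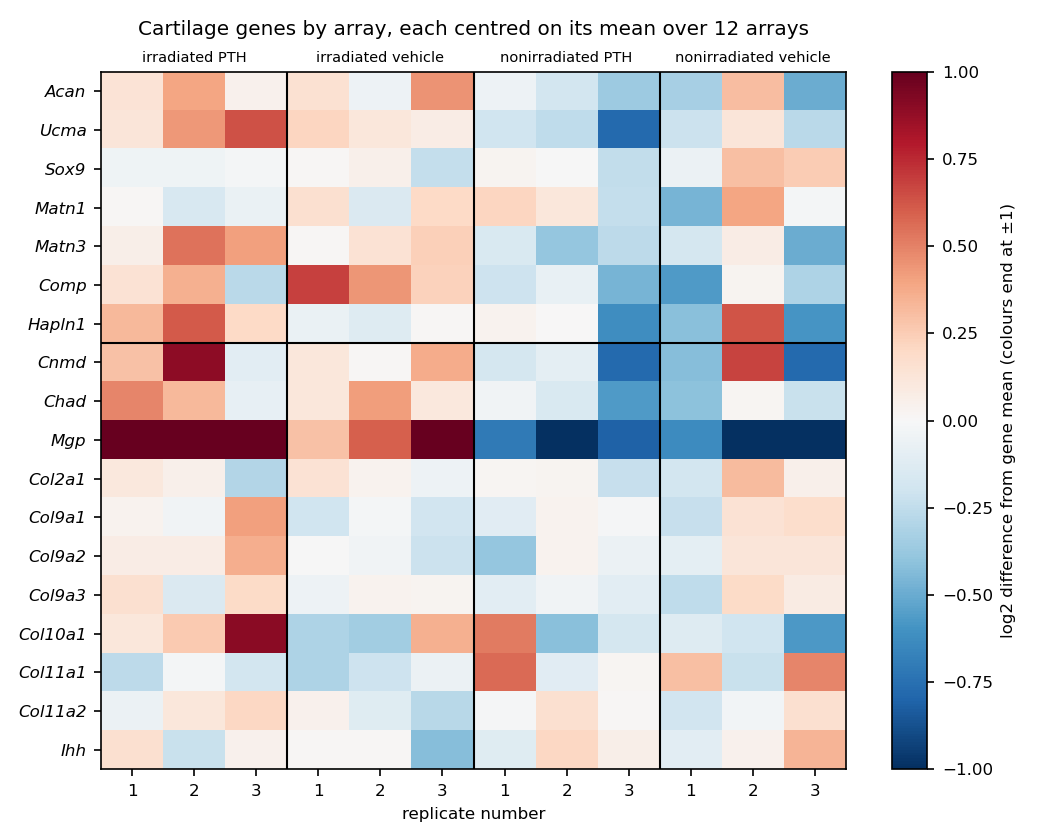
Each gene's log2 value minus its own mean over the 12 arrays, with arrays in columns by group and replicate, the 7 genes above the line and other cartilage genes below it. *Mgp* runs past the colour limit, with 9.61 to 11.08 in the irradiated and 7.62 to 8.69 in the nonirradiated arrays, while the row of *Col2a1* stays pale, between 6.64 and 7.25.

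Among 18 other noncollagen cartilage matrix genes, 1 rose with irradiation in PTH mice, where 0.692% of all genes were called higher. In vehicle mice 2 rose, where 1.21% of all genes were called higher, and 0 fell in either. The list medians were 0.06 in both against 0.01 and -0.03 over all genes. *Mgp*, which encodes the matrix Gla protein, an inhibitor of calcification made by chondrocytes and vascular smooth muscle, was the large one. It read 10.47, 10.45 and 11.08 in irradiated PTH marrow, against 8.61, 8.12 and 8.51 in nonirradiated PTH marrow, a rise of 2.26 (SE 0.315, adjusted p = 0.00261). In irradiated vehicle marrow it read 9.61, 9.91 and 10.71, against 8.69, 8.0 and 7.62 in nonirradiated vehicle marrow, a rise of 1.97 (SE 0.315, adjusted p = 0.00631). All irradiated arrays lay above all nonirradiated ones, and both calls held in all 12 fits that left out 1 array. *Matn2*, a matrilin of many connective tissues, rose by 0.59 in vehicle mice (adjusted p = 0.0357). Its call held in 2 of those 12 fits, those without nonirradiated vehicle replicate 1 or irradiated PTH replicate 3, and did not pass with sex in the model (0.0879). *Chad*, a cartilage adhesion protein, changed by 0.49 in PTH mice and 0.42 in vehicle mice and did not pass, and *Prelp* (-0.16 and 0.94) and *Snorc* (0.07 and -0.22) did not pass either.

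Where genes that build and sulfate the aggrecan chains passed, they fell. Of 11 such genes, 2 were called lower with irradiation in PTH mice, where 1.74% of all genes were. In vehicle mice 1 was called lower, where 1.01% of all genes were, and 0 were called higher in either. *Chst3*, which sulfates chondroitin and keratan chains, read 4.92, 4.70 and 5.09 in irradiated PTH marrow, against 6.33, 6.98 and 6.48 in nonirradiated PTH marrow, and fell by 1.69 (SE 0.280, adjusted p = 0.00743). It read 5.27, 5.05 and 4.85 in irradiated vehicle marrow, against 5.99, 7.27 and 6.39 in nonirradiated vehicle marrow, and fell by 1.49 (SE 0.280, adjusted p = 0.0149). All irradiated values of *Chst3* lay inside the range read for the absent Y-linked genes. The fall in vehicle mice did not pass without irradiated vehicle replicate 2 (adjusted p = 0.0683) or 3 (0.0746), nor with only the 2 groups in the fit (0.0540). With sex in the model the fall in PTH mice did not pass either (0.0683). *Csgalnact1*, which starts chondroitin chains, fell by 0.85 in PTH mice (adjusted p = 0.0468), a call kept in 2 of 12 fits without 1 array and lost with sex in the model (0.371). *Xylt1* (-1.0 and -0.40 in PTH and vehicle mice) did not pass, nor did *Chsy1* (-0.01 and 0.42) and *Chst11* (-0.24 and 0.23).

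Among 11 measured transcription factors of chondrocytes, *Mef2c*, which drives chondrocyte enlargement and is also expressed in B cells and other marrow cells, was the only one called. It fell by 1.07 in PTH mice (adjusted p = 0.0247) and by 0.99 in vehicle mice (adjusted p = 0.0397), with its calls kept in 8 and 3 of 12 fits without 1 array. With sex in the model neither call passed (adjusted p = 0.224 in PTH mice and 0.0517 in vehicle mice). The call in PTH mice also ended with only its 2 groups in the fit (0.152), and that in vehicle mice with a trended, robust variance (0.0504). In the same comparisons 10 of 10 measured B-lineage genes had negative differences. Of that list 9 of the 10 were called lower in each, where 1.74% of all genes were in PTH mice and 1.01% in vehicle mice. The mean log2 level of that list ran from 6.70 to 7.27 in irradiated PTH, 7.17 to 7.56 in irradiated vehicle, 9.35 to 9.66 in nonirradiated PTH and 9.19 to 9.59 in nonirradiated vehicle marrow. Their part in the *Mef2c* and *Chst3* results was not tested. *Trps1* (-0.41 and -0.31), *Foxa2* (0.20 and -0.06), *Foxa3* (0.28 and -0.15) and *Zfp219* (0.08 and 0.18) did not pass. Of 11 signals and receptors of the growth plate, *Ptch1*, *Bmpr1b*, *Gdf5* and *Ihh* among them, 0 were called. Irradiation differences in PTH and vehicle mice were -0.66 and 0.28 for *Ptch1*, the hedgehog receptor, 0.070 and -0.27 for *Bmpr1b*, a BMP receptor, and 0.22 and 0.0066 for *Gdf5*, a joint-forming ligand. *Ptch1* read 8.39, 8.27 and 6.56 in irradiated PTH marrow, against 8.59, 8.49 and 8.11 in nonirradiated PTH marrow. Its -0.66 thus rested mostly on irradiated PTH replicate 3, an array of narrow range.

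Of 8 proteases that cut cartilage matrix, 0 were called with irradiation in PTH mice, where 2.43% of all genes were. In vehicle mice 2 rose, where 1.21% of all genes were called higher. *Mmp13*, the collagenase of mineralising cartilage and bone, read 11.57, 11.76 and 11.65 in irradiated vehicle marrow, against 10.66, 10.35 and 10.67 in nonirradiated vehicle marrow (1.10, SE 0.182, adjusted p = 0.00761), and this call held in all 12 fits that left out 1 array. In PTH mice it differed by 0.66 and did not pass (adjusted p = 0.0917). *Adamts1*, an aggrecan-cutting protease, rose by 1.21 in vehicle mice (adjusted p = 0.0400), a call kept in 2 of 12 such fits and lost with sex in the model (0.0538). *Mmp3* (0.07 in PTH mice and -0.46 in vehicle mice) and *Htra1* (0.33 and 0.53) did not pass.

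Markers of the tissues next to the marrow gave these levels in the same arrays. Of 10 measured genes of bone-forming cells and osteocytes, 0 were called, and their mean log2 level ran from 7.82 to 8.34 in irradiated PTH, 7.93 to 7.98 in irradiated vehicle, 8.12 to 8.55 in nonirradiated PTH and 7.73 to 8.17 in nonirradiated vehicle marrow. Of 8 genes of tendon, perichondrium and synovium, tissues that also express *Comp*, 0 were called, with means of 5.49 to 5.63 in irradiated PTH, 5.51 to 5.70 in irradiated vehicle, 5.46 to 5.65 in nonirradiated PTH and 5.38 to 5.64 in nonirradiated vehicle marrow. Of 9 skeletal muscle genes, 0 were called, and their mean varied from 6.52 to 8.04 among single arrays. Of 6 adipocyte genes, 3 rose with irradiation in PTH mice and 5 in vehicle mice. Over all genes, 0.692% and 1.21% were called higher in the same order. The adipocyte mean ran from 9.41 to 9.73 in irradiated PTH, 10.1 to 10.3 in irradiated vehicle, 8.31 to 8.60 in nonirradiated PTH and 8.5 to 8.77 in nonirradiated vehicle marrow. The part of these cell types in the *Ucma*, *Matn3* and *Comp* values was not tested.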

How the data were processed

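Total RNA of whole marrow flush was measured on 12 arrays, and, per the submitters' processing notes, affy, RMA and limma were used. Values in the authors' deposited table are on a log2 scale, as its range and the name RMA show, and the labels name neither a genome build nor whether all arrays were normalized together. Of 35556 rows, 21789 had 1 gene symbol, 1621 had several and 12146 were not listed in the probe annotation. Rows of 1 symbol gave 19938 genes by the row with the highest mean, and symbols were updated through RefSeq's GRCm38.p6 table. A model of 4 group means was fitted to the 12 arrays (limma 3.58.1, R 4.3.3; 8 residual degrees of freedom, eBayes defaults), with 7 contrasts and a call at a Benjamini-Hochberg adjusted p under 0.05. The fit was tested in 10 simulations of irradiation in PTH mice, with 200 changed genes each. It called 12.4% of log2 changes of 0.5, 69% of changes of 1 and 94.8% of changes of 2. Of its calls, 4.67% were false. Noise was drawn independently for each gene and array, without the shared array deviations or sex differences of these data. These rates hold for those settings, under which most changes of 0.5 in that comparison were missed. The contrast averaged over treatments was not simulated. List entries without such a row, *Runx2* and *Pthlh* among them, were not analysed here.

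The members and lists were chosen with earlier results of these data known. Genes named were all members, from each cartilage list the 3 with the smallest p for irradiation averaged over treatments, the 2 for PTH in irradiated mice and all called ones, and the genes of highest Pearson r with a member. A few further marker genes were named after their values were seen. Same-numbered arrays of the 2 irradiated groups had correlations of deviations of 0.144 to 0.57, and differently numbered ones -0.509 to 0.396. For all other pairs of groups same-numbered arrays ran from -0.651 to 0.596. The main fit used no pairing. The replicate number entered only as a block in alternatives, from the data and not from the labels. In both irradiated groups replicate 1 had the female pattern and replicates 2 and 3 did not. Alternatives covered variance model, array weights, normalization, centring, dim genes, row choice, block, sex and each array.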

Additional observations from a re-analysis of the deposited data

How the results depend on the processing

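Single arrays and the choice of model decided most calls among the 7 genes, and in each case the cause was not tested. For irradiation in vehicle mice 0 members were called, against 1 with array weights, 1 with housekeeping centring, 1 with the replicate block, and 0 to 1 when 1 array was left out. For irradiation in PTH mice 1 was called, against 2 with array weights, 0 with sex in the model, 0 with the fit limited to the pair compared, 0 without both narrow-range arrays, and 0 to 1 when 1 array was left out. For irradiation averaged over treatments 3 were called, against 1 with sex as a term, 1 without both narrow-range arrays, and 0 to 4 when 1 array was left out. The PTH comparisons and the interaction gave 0 members under every alternative. With a replicate block in the 2 irradiated groups alone, an alternative chosen after seeing the data, the pairing left *Hapln1* at 0.44 (adjusted p = 0.507) and *Comp* at -0.38 (adjusted p = 0.507). Leaving out dim genes, with a mean under 6.48, gave no value for 6 of the 7 members. Most differences that turned sign were small. For irradiation in vehicle mice, *Hapln1* was -0.28 with array weights and -0.17 without both narrow-range arrays, and *Matn1* was -0.20 with array weights, and averaged over treatments it was -0.16. For PTH in irradiated mice, *Acan* was -0.027 and *Sox9* -0.031 with quantile normalization, and *Sox9* was -0.063 with array weights. For PTH in nonirradiated mice, *Acan* was 0.017 with quantile normalization, and with sex as a term *Acan* was 0.033, *Comp* -0.19, *Matn1* -0.068 and *Matn3* 0.24. Array weights gave -0.11 for *Comp* and -0.092 for *Matn1* there. For PTH averaged, *Acan* was 0.023 with array weights and 0.022 with sex as a term, *Matn3* -0.020 without both narrow-range arrays, and *Ucma* 0.0030 with quantile normalization and 0.060 with sex as a term. The interaction was -0.044 for *Acan* with quantile normalization, -0.022 for *Acan* and -0.031 for *Matn3* with sex as a term, and 0.087 for *Matn1* with array weights. When 1 array was left out, irradiation in vehicle mice ranged from -0.17 to 0.44 for *Hapln1* and -0.11 to 0.32 for *Matn1*, in PTH mice from -0.048 to 0.088 for *Sox9*, and averaged from -0.11 to 0.11 for *Matn1*. PTH in irradiated mice then ranged from -0.11 to 0.14 for *Acan* and -0.066 to 0.078 for *Sox9*. PTH in nonirradiated mice ranged from -0.19 to 0.21 for *Acan*, -0.11 to 0.19 for *Comp*, -0.31 to 0.31 for *Hapln1*, -0.16 to 0.27 for *Matn1* and -0.21 to 0.077 for *Matn3*. PTH averaged ranged from -0.088 to 0.11 for *Acan*, -0.15 to 0.064 for *Matn1*, -0.0014 to 0.14 for *Matn3* and -0.071 to 0.080 for *Ucma*, and the interaction from -0.20 to 0.20 for *Acan* and -0.42 to 0.012 for *Matn1*.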
